A study of Mus musculus with 768 samples.

Results

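The circadian clock of mammals is a feedback loop of transcription. *Arntl* (BMAL1) and *Clock* form the activating pair, which binds E-boxes in DNA and switches on the *Per* genes, the nuclear receptors *Nr1d1* and *Nr1d2* (REV-ERBα and REV-ERBβ), the output factor *Dbp* and the repressors *Bhlhe40* and *Bhlhe41* (DEC1 and DEC2). PER proteins and their CRY partners block the activating pair, the REV-ERBs repress *Arntl*, and the DEC proteins compete for E-boxes. *Bhlhe40* and *Bhlhe41* are also known as factors of differentiation and of the response to stress outside the clock. The levels of many of these genes move with the time of day in many tissues, and in fibroblasts too.

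These 10 genes, of 24490 endogenous genes in the tables, are described here across single cancer-associated fibroblasts of mouse mammary tumors. The genes were chosen by symbol, with the difference of *Bhlhe41* between vascular and matrix cells already known from these data, so their values in that contrast are a description and carry no test. All 10 were found in the tables.

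Cells came from 2 tumors of mice of the strain FVB/N-Tg(MMTVPyVT)634Mul/J, aged 14 weeks, in which the polyoma middle T oncogene is driven in the mammary epithelium by the MMTV promoter. The labels name no treatment, and tissue without a tumor was not analysed here. Living cells negative for EpCAM, CD45, CD31 and NG2 were sorted 1 per well, 384 wells for each tumor, and sequenced by Smart-seq2, which reads whole transcripts without molecular identifiers and without strand. Each tumor filled 1 plate and is the replicate (n = 2 tumors), and a tumor cannot be told apart from its plate. The sources used here do not say whether the tumors came from separate mice, so the spread between them may be that within an animal.

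Of the 768 wells, 727 with at least 10000 non-ERCC reads were kept, 373 of tumor 1 and 354 of tumor 2. A cell was called vascular when *Rgs5*, a marker of perivascular cells, reached an RPKM (reads scaled by gene length and by the depth of the well) of 32 and its log2(RPKM + 1) stood at least 2 above that of *Dcn*, which encodes the matrix proteoglycan decorin, and matrix in the reverse case. This gave 264 and 242 vascular cells, 87 and 84 matrix cells, and 22 and 28 cells of neither class, with 28 wells within 1 log2 unit of the limit. The other 8 vascular and 8 matrix markers were all higher in their own class in both tumors. Of the defining markers of other cells, *Pecam1* and *Cdh5* (endothelium) and *Ptprc* (leukocytes) had a mean RPKM of at most 0.198 in either class. Of the other endothelial markers, *Emcn* reached 62.9 and 120 in vascular cells and *Tek* 5.86 and 5.36 in matrix cells. The summed RPKM of 4 markers of Schwann cells was 1.92 and 2.40 in vascular and 9.56 and 11.5 in matrix cells. *Epcam* was read in 8 and 21 vascular and in 6 and 13 matrix cells. The summed RPKM of 6 epithelial markers was 3.25 and 38.7 in vascular and 10.1 and 22.7 in matrix cells, that of 6 immune markers 1.58 and 2.78 against 12.7 and 5.07, and that of 6 markers of the rare developmental cells 3.07 and 67.9 against 157 and 95.9. Without the wells with an *Epcam* read the difference of each of the 10 clock genes between the classes kept its direction. The part of the endothelial, Schwann, immune and developmental markers in the results was not tested. Matrix cells had more reads (medians of 276708 and 232394.5 against 202788 and 190825) and a lower share of ERCC spike-in reads (6.36% and 6.22% against 14.3% and 12.4%). Matrix cells thus gave more endogenous reads per spike-in read, and the scaling of the libraries bears on every difference between the classes.

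The promoters of 8 of the 10 genes were matched in the RefSeq table (12 promoters on GRCm38.p6, each 250 bases before to 50 bases after a start). They were searched on both strands for the E-box CACGTG, the variant CACGTT, the D-boxes TTATGTAA and TTACGTAA and the element AGGTCA bound by REV-ERB and ROR receptors. The 4 stretches shown are those before a start that hold an E-box, its variant or a D-box, the elements by which clock factors are known to act on each other. Capitals mark the match, and each stretch reads 5′ to 3′ along the gene's strand.
Bhlhe41: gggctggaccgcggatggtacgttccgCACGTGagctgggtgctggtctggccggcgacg
Per1: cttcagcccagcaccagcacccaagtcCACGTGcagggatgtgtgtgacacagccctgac
Nr1d1: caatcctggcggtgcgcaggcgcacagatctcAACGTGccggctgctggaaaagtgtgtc
Per3: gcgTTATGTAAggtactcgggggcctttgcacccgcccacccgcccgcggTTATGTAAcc

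The *Bhlhe41* stretch lies at chr6:145865541-145865600 on the minus strand, with its E-box beginning 153 bases before the start. The *Per1* stretch lies at chr11:69098756-69098815 on the plus strand, with the E-box 166 bases before a start that lies inside the span of the gene given further on, so that the stretch is within the annotated gene. In *Nr1d1* (chr11:98775378-98775437, minus strand) the variant is read as AACGTG, 28 bases before the start. *Per3* (chr4:151044814-151044873, minus strand) holds the D-box TTATGTAA at 205 and at 158 bases before the start. Over all 32851 promoters of this length, 7.15% held CACGTG, 4.69% CACGTT, 0.938% TTATGTAA and 0.119% TTACGTAA. AGGTCA was found in 4 of the 12 promoters (*Arntl*, *Clock*, *Nr1d2* and *Per1*), beside 16.3% of all. TTACGTAA was found in 0 of the 12. No match for a gene says only that these letters are not in this window.

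In vascular cells the DEC gene *Bhlhe40* had the highest level of the 10, with a mean RPKM of 50.8 ± 2.78 (SD, n = 2 tumors). *Nr1d2* (15.0 ± 4.90), *Arntl* (14.6 ± 0.868) and *Nr1d1* (14.5 ± 4.14) followed and could not be ordered within their spread. *Clock* (6.83 ± 0.376), *Per1* (6.52 ± 2.75), *Dbp* (5.04 ± 1.60) and *Per3* (3.79 ± 2.13) came next, where *Per1* overlapped with the other 3 and *Dbp* with *Per3*, while the values of *Clock* lay above those of *Dbp* and *Per3* in both tumors. *Per2* (1.73 ± 0.537) was lower than *Per3* in each tumor, and *Bhlhe41* (0.609 ± 0.190) was the lowest of the 10.

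In matrix cells *Bhlhe40* led again with a mean RPKM of 86.6 ± 12.3, and *Bhlhe41* stood next to it at 48.8 ± 2.54. The order of the other 8 was close to that in vascular cells, from *Nr1d1* (22.9 ± 3.03), *Arntl* (16.2 ± 3.69) and *Nr1d2* (14.0 ± 1.22) over *Dbp* (7.04 ± 0.686), *Per1* (6.68 ± 3.05) and *Clock* (5.83 ± 0.525) to *Per3* (2.31 ± 0.121) and *Per2* (0.946 ± 0.567). The ranges of *Arntl* and *Nr1d2* overlapped, and that of *Per1* overlapped with those of *Dbp* and *Clock*. The change of place of *Bhlhe41*, from last to second, stands out in the plot of mean levels.

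**Figure D1:**
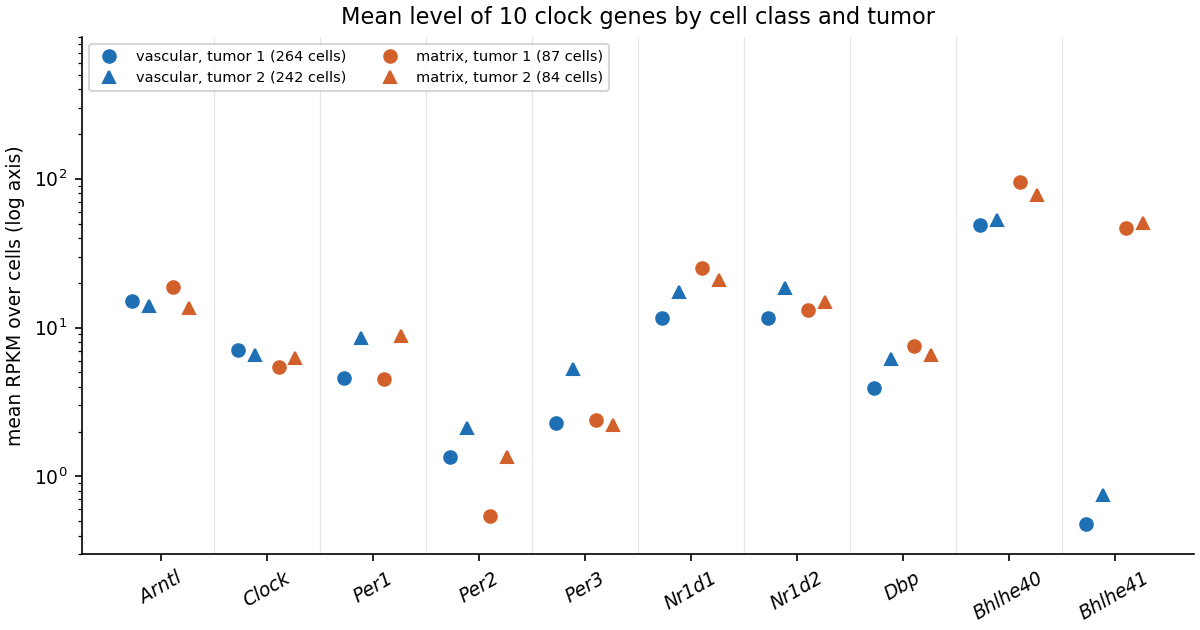
Mean RPKM (log axis) of the 10 clock genes over the vascular (blue) and matrix (orange) cells of tumor 1 (circles) and tumor 2 (triangles). Bhlhe41 lies at 0.475 and 0.744 in vascular cells and at 47.0 and 50.6 in matrix cells, while the points of the other genes lie within a far smaller range.

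*Bhlhe41* (GRCm38.p6, chromosome 6, 145858243 to 145865420, minus strand) encodes DEC2, a repressor known for its mutation in short sleep. Its mean RPKM was 0.475 in the vascular cells of tumor 1 and 0.744 in those of tumor 2, against 47.0 and 50.6 in matrix cells. At least 1 read was found in 24 of 264 and 31 of 242 vascular cells, or 9.09% (exact binomial 95% confidence interval 5.91 to 13.2%) and 12.8% (8.87 to 17.7%). In matrix cells it was found in 71 of 87 and 64 of 84, or 81.6% (71.9 to 89.1%) and 76.2% (65.7 to 84.8%). The intervals cover counting error within a tumor only, and *Bhlhe41* was chosen for this difference. With every cell thinned to 50000 reads the shares were 3.91% and 4.41% in vascular cells and 82.9% and 78.8% in matrix cells (8 and 15 vascular and 5 and 4 matrix cells were too shallow and left out).

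The reads behind these shares differed as much as the shares. Matrix cells with a read had a median of 83 and 70.5 reads of *Bhlhe41*, and vascular cells with a read had a median of 1 in both tumors. Of the 199 reads in vascular cells of tumor 1, 88.9% came from 5 wells with at least 5 reads, and of the 252 in tumor 2, 86.9% came from 4 such wells. *Dcn* was read in 3 of those 5 and in 3 of those 4 wells, and *Rgs5* stood above *Dcn* by 2.62 to 10.9 log2 units in the 5 wells and by 2.82 to 9.14 in the 4, so that some lay close to the limit of the class and others far from it. Outside these 9 wells, vascular cells held 1 to 4 reads of *Bhlhe41* in 19 and 27 wells and 0 in the rest.

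The level in vascular cells was also set beside that of matrix genes. *Bhlhe41* in vascular cells reached 1.01% and 1.47% of its level in matrix cells, and the 8 matrix markers other than *Dcn* reached a median of 0.902% (0.479 to 8.25%) and 2.04% (0.165 to 15.3%). *Pdgfra*, a receptor that marks matrix fibroblasts, was read in 15.2% and 9.09% of vascular cells, and *Lum*, a collagen-binding proteoglycan, in 38.6% and 22.7%. *Bhlhe41* in vascular cells thus stood within the range of the matrix markers there. Whether its few reads come from these cells was not tested.

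Along the difference between *Rgs5* and *Dcn*, *Bhlhe41* did not drop at a single step. It was read in 84.8% of the 79 wells in which *Dcn* led by over 8 log2 units and in 71.4% of the 21 wells between 6 and 4. It was read in 38.1% of the 21 wells in which *Rgs5* led by 4 to 6, in 11.1% of the 18 wells at 6 to 8, and in 7.18% of the 195 wells at 12 or more. The mean RPKM was 51.4, 5.81, 0.272 and 0.0690 in the wells with these leads of over 8 (*Dcn*), 4 to 6, 6 to 8 and over 12 (*Rgs5*). *Clock* was read in 55.7% of the wells at the *Dcn* end and in 40.5% at the *Rgs5* end, with mean RPKM of 4.26 and 6.77. Wells of neither class lay between, with *Bhlhe41* in 7 of 22 and 14 of 28 wells.

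**Figure D2:**
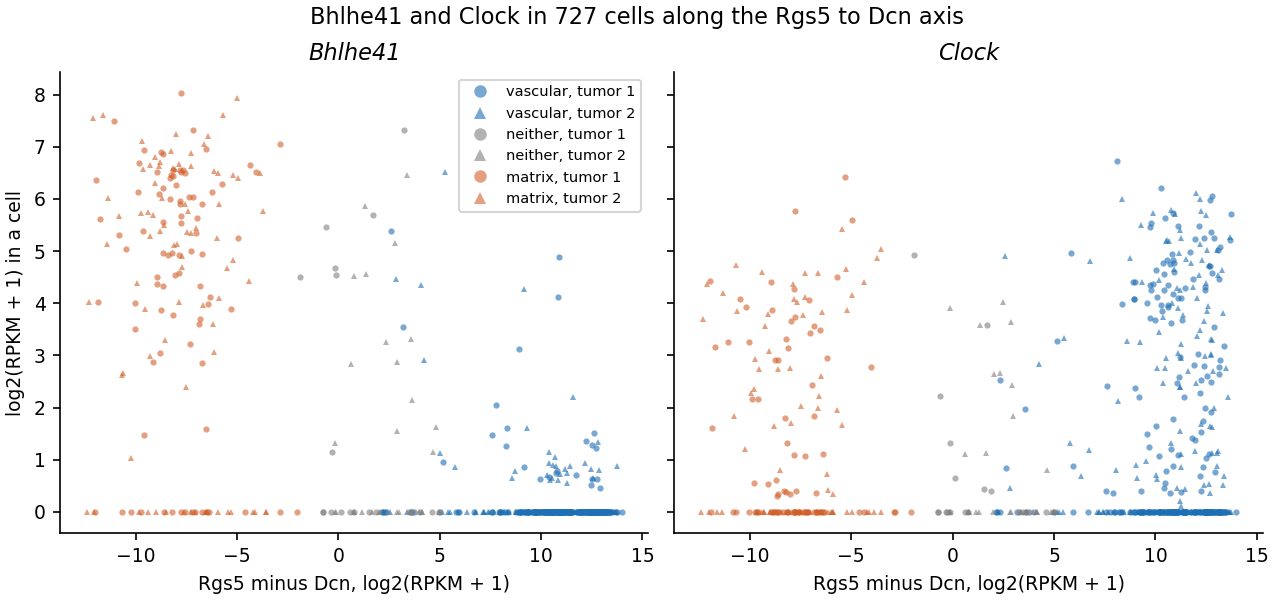
log2(RPKM + 1) of Bhlhe41 (left) and Clock (right) in each of the 727 cells against log2(RPKM + 1) of Rgs5 minus that of Dcn. Orange cells are matrix, blue vascular and grey neither, with circles for tumor 1 and triangles for tumor 2. Bhlhe41 is above 0 in most matrix cells and near 0 in most vascular cells, whereas Clock is spread over both.

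In counts summed per tumor and class (4 libraries, TMM-scaled), *Bhlhe41* stood at 3.34 and 4.70 CPM (counts scaled to the size of the library) in the vascular libraries and at 346 and 367 in the matrix libraries. Vascular minus matrix was -6.69 in tumor 1 and -6.28 in tumor 2 on the log2 scale, a mean of -6.48 ± 0.289 (SD, n = 2 tumors). Of 11715 genes tested, 1.55% had a difference at least as low. With classes made from the other 16 markers and without *Rgs5* and *Dcn*, the value was -7.42. Without the wells that had an *Epcam* read it was -6.54, and without cycling cells -6.42.

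*Bhlhe40* (chromosome 6, 108660629 to 108666925, plus strand) encodes DEC1, the paralog of DEC2 and an immediate target of growth factors, glucocorticoids and low oxygen in many cells. It was read in 58.0% and 62.0% of vascular cells and in 79.3% and 83.3% of matrix cells, with medians over all cells of 11.4 and 15.1 RPKM against 63.1 and 58.6. The ranges of single cells overlapped widely, up to 581 and 736 RPKM in vascular and up to 1136 and 372 in matrix cells. Summed counts were 158 and 160 CPM in vascular and 371 and 292 in matrix libraries, so that vascular minus matrix was -1.23 and -0.87 (log2). Both DEC genes were read together in 60 of 87 and 57 of 84 matrix cells, and in 17 of 264 and 22 of 242 vascular cells. *Bhlhe40* was thus carried by most cells of both classes, and *Bhlhe41* by most matrix cells and few vascular cells.

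The activating pair showed no such difference. *Clock* (chromosome 5, 76209868 to 76305603) had 69.8 and 68.4 CPM in vascular and 54.7 and 74.4 in matrix libraries, and the sign of the difference changed between the tumors (0.35 and -0.12). *Arntl* (chromosome 7, 113178471 to 113314126) had 42.7 and 44.2 against 59.9 and 41.1, also with a change of sign (-0.49 and 0.11). *Arntl* was nevertheless read in more matrix cells, 54.0% and 42.9% against 26.5% and 26.4% of vascular cells, and thinning left this at 48.8% and 37.5% against 23.4% and 23.8%. Fewer vascular cells thus carried *Arntl* reads. The summed level was similar with TMM, but lower in vascular cells in both tumors with ERCC scaling (-1.21 and -0.51) and as a mean of log2(RPKM + 1) over cells (-1.13 and -0.52). In vascular cells the tenth of cells with the highest values held 73.0% and 76.3% of the summed RPKM, against 44.2% and 62.2% in matrix cells.

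Among the repressors, *Per1* (chromosome 11, 69095108 to 69109965) stood at 21.04 and 38.3 CPM in vascular and 22.4 and 52.7 in matrix libraries, a difference of -0.09 and -0.46 (log2). *Per2* (chromosome 1, 91415977 to 91459351) was sparse, with reads in 13 and 18 vascular cells and in 3 and 10 matrix cells, and 6.54 and 14.5 against 4.78 and 11.9 CPM. *Per3* (chromosome 4, 150997018 to 151044707) had 14.1 and 31.1 against 15.1 and 21.7, and its difference changed sign (-0.10 and 0.52). The fitted difference of *Per2* between the classes was 0.33, but 1.02 without cycling cells and 0.88 with each cell given the same total, and that of *Per3* was 0.30, but 0.73 after thinning.

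The REV-ERB genes and *Dbp* complete the loop. *Nr1d1* (chromosome 11, 98767932 to 98775377) had 35.1 and 49.1 CPM in vascular and 85.9 and 66.7 in matrix libraries, a difference of -1.29 and -0.44 (log2). *Nr1d2* (chromosome 14, 18204056 to 18239106) had 60.03 and 79.7 against 68.0 and 78.2, a difference of -0.18 and 0.03. *Dbp* (chromosome 7, 45705100 to 45710203), a factor that drives D-box genes, had 5.12 and 6.89 against 12.1 and 10.1, a difference of -1.24 and -0.55. *Nr1d1* and *Dbp* were thus lower in vascular libraries in both tumors, and *Nr1d2* was level with TMM. With ERCC scaling *Nr1d2* was lower in vascular cells in both tumors (-0.90 and -0.59), as it was by the mean of log2(RPKM + 1) over cells (-0.69 and -0.30).

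**Figure D3:**
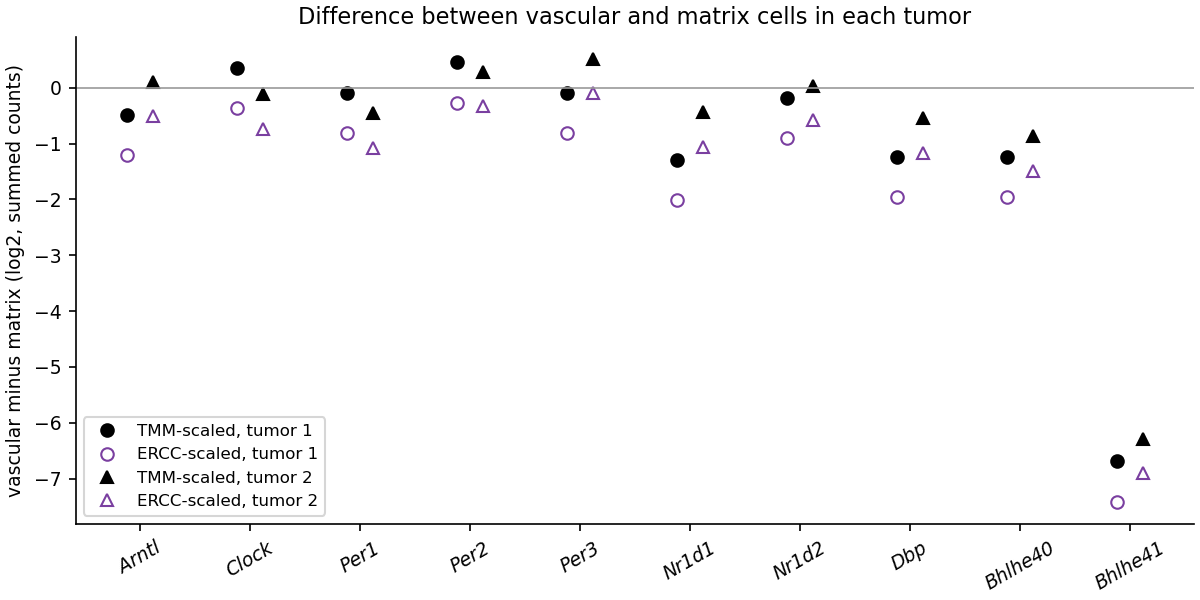
Vascular minus matrix (log2, counts summed per class) of the 10 clock genes in tumor 1 (circles) and tumor 2 (triangles), scaled by TMM (filled) and by ERCC reads (open). Bhlhe41 lies at -6.69 and -6.28 with TMM, where the other 9 genes lie between -1.29 and 0.52. With ERCC scaling Bhlhe41 lies at -7.42 and -6.90 and the other 9 between -2.01 and -0.10.

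Exons of *Nr1d1* share 263 bases with *Thra* on the other strand, and exons of *Dbp* share 539 with *Sphk2*, and reads without strand cannot be told apart there. *Nr1d1* was read in 59.2% and 65.2% of the vascular cells with a *Thra* read and in 25.3% and 31.0% of those without. In matrix cells these shares were 75.4% and 73.7% against 50.0% and 33.3%. *Dbp* was read in 12.2% and 23.5% of the vascular cells with a *Sphk2* read and in 8.84% and 10.9% of those without. In matrix cells it was 25.0% and 39.4% against 13.4% and 9.80%. *Thra* itself was lower in matrix cells (14.3 and 10.9 RPKM against 19.2 and 23.2), the opposite direction to *Nr1d1*. *Bhlhe41* shares 855 bases with the gene model *Gm43909*, *Bhlhe40* 118 with *0610040F04Rik* and *Arntl* 33 with *Gm45355*. The part of these overlaps in the values was not tested.

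In the fit across all 11715 genes (edgeR's quasi-likelihood test, Benjamini-Hochberg adjusted p under 0.05), 1910 genes (16.3%) differed between the classes, 773 (6.60%) higher in vascular and 1137 (9.71%) higher in matrix cells. Of the 10 clock genes 2 were among these, *Bhlhe40* and *Bhlhe41*, both higher in matrix cells. *Bhlhe41* reached the mean RPKM of 1 needed for the fit only through matrix cells (48.8, against 0.609 in vascular cells). Since the genes were chosen with this contrast known, the count is given without reading it and is no test of them. The median difference was -0.28 (log2) over the 10 genes and 0.03 over all genes tested. With DESeq2, 3 of the 10 passed beside 25.2% of all genes. Scaling by ERCC reads moved the median of all genes by -0.67, and then 4 of the 10 passed beside 34.0% of all genes. Under that scaling all 10 genes were lower in vascular cells in both tumors, so that no direction is given for *Clock*, *Arntl*, *Per2*, *Per3* and *Nr1d2*. *Bhlhe41*, *Bhlhe40*, *Nr1d1* and *Dbp* were lower in vascular cells in both tumors under either scaling. *Per1* had the same sign throughout, but its TMM difference was -0.09 in tumor 1 and -0.28 ± 0.260 (SD) on average. That is close to the spread between the tumors, so no direction is given for *Per1* either.

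The other core clock genes were taken from a list of 16, of which 12 passed the filter on low values. This list and those that follow were chosen with earlier results of these data known. Their p-values between the classes are therefore no independent test. In the same fit 1 of the 12 passed the test (16.3% of all genes), and the median of the 12 was 0.22. Of the 12 differences 3 were negative with TMM and 10 with ERCC scaling, so no direction is given for the list. In DESeq2 2 passed (25.2% of all genes), *Npas2* and *Timeless*, and with ERCC scaling 2 passed (34.0% of all genes), *Npas2* and *Rora*, both lower in vascular cells. *Npas2*, a paralog of *Clock* that also pairs with BMAL1, was lower in vascular cells by -2.39 (log2, standard error 0.479, edgeR adjusted p = 0.0264). It had 5.17 and 12.2 CPM in vascular and 52.1 and 39.1 in matrix libraries, and was read in 6.82% and 11.98% against 57.5% and 52.4% of the cells. *Npas2* was thus lower in the vascular library of both tumors, and unread in many cells of either class.

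With TMM the cryptochromes, the partners of the PER proteins, did not pass, with 0.56 (adjusted p = 0.246) for *Cry1* and 0.12 (0.817) for *Cry2*. *Rora*, the receptor that opposes the REV-ERBs, had -0.62 (0.142, or -1.28 and 0.0162 with ERCC scaling), and *Timeless*, which acts mainly at replication forks, had 1.61 (0.0800, 0.0440 when the tumor entered as a block, and 0.0107 in DESeq2). The kinases *Csnk1d* (0.19, 0.518), *Csnk1e* (0.54, 0.179) and *Gsk3b* (0.25, 0.368), which act on the stability of clock proteins, had high levels among those that did not pass.

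Of 8 further output genes, 0 passed in edgeR with TMM (16.3% of all genes), 1 had an unadjusted p under 0.05 (29.8% of all genes) and 1 passed in DESeq2 (25.2%). The gene called in DESeq2 was *Usp2*, a ubiquitin protease under clock control, with 1.26 (edgeR adjusted p = 0.0690, DESeq2 0.0127) and 36.3 and 39.7 CPM in vascular against 20.3 and 11.5 in matrix libraries. *Klf9* (0.38, adjusted p = 0.253), *Nfil3* (-0.62, 0.257), *Klf10* (-0.14, 0.812) and *Tef* (0.08, 0.895) did not pass. With ERCC scaling *Nfil3* passed as lower in vascular cells (-1.27, adjusted p = 0.0370), 1 of 8 beside 34.0% of all genes. With TMM the median of the 8 was -0.10.

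The DEC genes respond to several signals, and lists for these were read from the same fit, with the same limit on their p-values. Of 10 immediate early genes, 1 passed (16.3% of all genes), *Ier2*, with -0.81 (adjusted p = 0.0230), and the median was -0.50. DESeq2 called 4 of the 10, beside 25.2% of all genes. With ERCC scaling 7 passed (*Fosb*, *Jun*, *Junb*, *Egr1*, *Ier2*, *Btg2* and *Dusp1*), all lower in vascular cells, beside 34.0% of all genes. With TMM *Fos* (0.16, 0.713), *Egr1* (-0.42, 0.171), *Dusp1* (-0.58, 0.140) and *Junb* (-0.33, 0.416) did not pass. Of 11 tested hypoxia genes, 1 passed with TMM in edgeR (16.3% of all genes), *Epas1*, with 3.68 (adjusted p = 0.000323), which encodes HIF2α and is among the vascular markers the study chose on these cells. *Ldha* (-0.10, 0.771), *Hif1a* (0.45, 0.113), *Slc2a1* (-0.82, 0.561) and *Adm* (-1.76, 0.117) did not, and the median was -0.05. In DESeq2 3 passed (25.2% of all genes), *Epas1*, *Adm* (0.0134) and *Hif1a* (0.0443). With ERCC scaling 3 passed (34.0%), *Epas1* as higher and *Ldha* (-0.77, 0.0354) and *Adm* (-2.40, 0.0385) as lower in vascular cells. With the tumor as a block 2 passed (17.1%), *Epas1* and *Vegfa*, which encodes the endothelial growth factor. *Vegfa* had differences of -2.53 and -2.47 in the tumors (adjusted p = 0.0182 with the block, 0.221 without).

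Of 7 tested glucocorticoid genes, 4 passed with TMM in edgeR (16.3% of all genes), 1 higher and 3 lower in vascular cells, and the median was -0.64. *Fkbp5*, a chaperone partner of the glucocorticoid receptor, was higher with 1.76 (adjusted p = 0.0490), or 2.50 in tumor 1 and 1.27 in tumor 2. The kinase *Sgk1* was lower with -2.70 (0.00107), and so were the metallothioneins *Mt1* (-1.04, 0.0246) and *Mt2* (-2.49, 0.0478). *Tsc22d3* (-0.64, 0.181), *Cebpd* (-0.46, 0.295) and the receptor *Nr3c1* (0.60, 0.0840) did not pass. DESeq2 called 5 (25.2% of all genes), with *Nr3c1* (0.0194) in addition. With ERCC scaling 0 passed as higher and 5 as lower (34.0%), with *Tsc22d3* (-1.32, 0.0158) and *Cebpd* (-1.13, 0.0240) in addition and without *Fkbp5* (1.09, 0.104), so that both directions were found with TMM and not with ERCC scaling.

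Of 10 related repressors and partners, 4 passed with TMM in edgeR (16.3% of all genes), 3 higher (6.60%) and 1 lower (9.71%) in vascular cells, with a median of 0.30. DESeq2 called 4 (25.2% of all genes). With ERCC scaling 2 passed as higher and 1 as lower (34.0% of all genes in either direction), and 7 of the 10 differences were negative. The Notch targets *Hey2* (4.65, adjusted p = 0.00104) and *Heyl* (0.93, 0.0151) and the inhibitor *Id4* (2.00, 0.00682) were higher. *Id2* was lower with -3.38 (0.0420), or -4.97 in tumor 1 and -2.70 in tumor 2. *Id3* (0.41, 0.343), *Hes1* (0.19, 0.781), *Id1* (-0.03, 0.979) and *Rxra* (-0.14, 0.758) did not pass. *Hey2*, a basic helix-loop-helix repressor of the same superfamily as the DEC genes, stood at 78.2 and 62.6 CPM in vascular and 3.31 and 2.26 in matrix libraries, the opposite direction to *Bhlhe41*. *Heyl* did not pass with ERCC scaling (0.26, adjusted p = 0.202), nor did *Id4* (0.92, 0.146) with classes made from the other markers. With each cell given the same total, *Id2* (-2.96, 0.0830) and *Mt1* (-0.88, 0.0605) did not pass. Calls near the threshold were also lost for *Fkbp5*, *Id2* and *Mt2* with a class margin of 0 (0.0534, 0.0554 and 0.0648), for *Id2* after thinning (0.0584), and for *Fkbp5* and *Mt2* with another gene filter (0.0502 and 0.0540), a higher minimum RPKM (0.0601 and 0.0545) and no cycling cells (0.0656 and 0.0536). In these last settings the differences stayed between 1.74 and 1.79 for *Fkbp5*, -2.53 and -2.38 for *Mt2* and -3.29 and -2.97 for *Id2*.

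**Figure D4:**
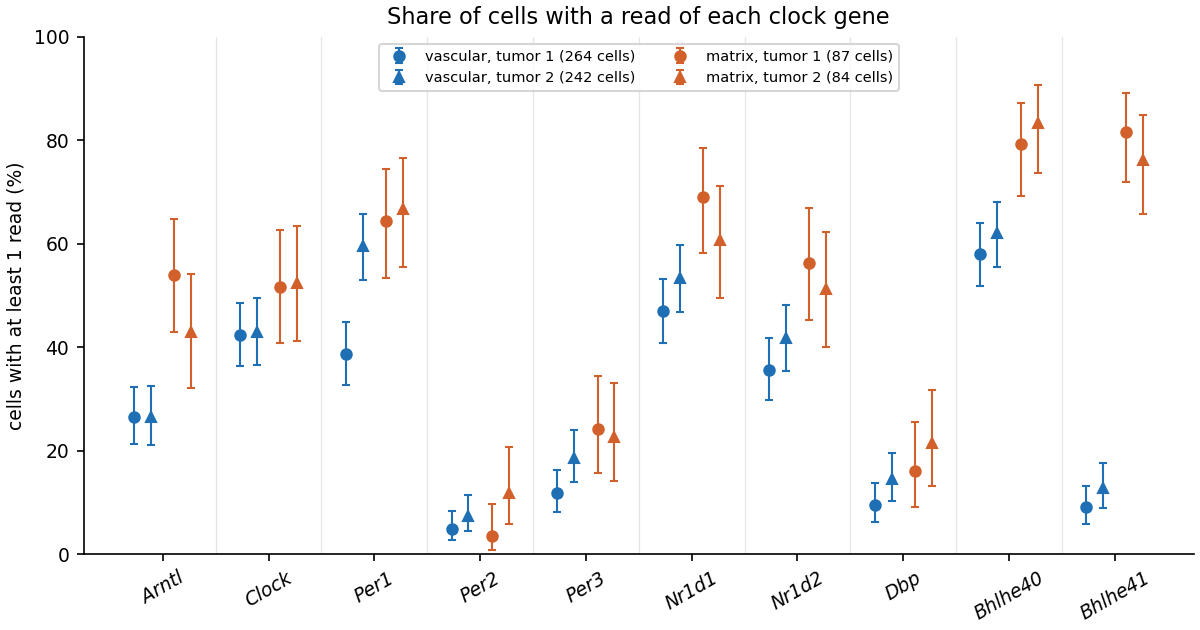
Percent of cells with at least 1 read of each clock gene, with exact binomial 95% intervals, in vascular (blue) and matrix (orange) cells of tumor 1 (circles) and tumor 2 (triangles). Bhlhe41 stands at 9.09% and 12.8% in vascular against 81.6% and 76.2% in matrix cells, and the intervals of Clock, Per2 and Dbp overlap between the classes.

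Whether the clock genes differ in dividing cells was tested within the vascular class, a contrast that played no part in choosing the genes. Vascular cells with at least 5 of 10 cell cycle markers at an RPKM of 1 were called cycling, 23 in tumor 1 and 22 in tumor 2, against 241 and 220 others. Of 11217 genes tested, 186 (1.66%) passed in edgeR, 174 (1.55%) higher and 12 (0.107%) lower in cycling cells. *Bhlhe41* did not pass the filter on low values. None of the other 9 clock genes passed in edgeR. At an unadjusted p under 0.05 there were 2 of the 9, beside 15.5% of all genes. In DESeq2 1 (*Per3*) passed, beside 8.13% of all genes.

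*Per3* stood at 5.76 and 5.67 CPM in cycling and at 16.5 and 37.3 in other vascular cells, a difference of -2.23 (log2, standard error 0.635, edgeR adjusted p = 0.198, DESeq2 0.0354). *Per3* rested on 35 and 29 reads in the cycling libraries. Its difference was smaller with ERCC scaling (-1.50) and with at least 3 cycle markers asked of a cycling cell (-1.36). *Nr1d2* had 39.8 and 43.8 against 68.2 and 92.2, a difference of -0.94 (standard error 0.291, edgeR adjusted p = 0.227). With TMM both were lower in cycling cells in both tumors, but with ERCC scaling the difference of *Nr1d2* was -0.20 (-0.01 in tumor 1). The fitted differences of the other 7 lay between -0.89 (*Nr1d1*) and -0.18 (*Dbp*), with edgeR adjusted p from 0.332 to 0.944. *Per2* (0.94 and -2.46) and *Arntl* (-0.88 and 0.22) changed sign between the tumors. Scaling by ERCC reads moved the median of all genes by 0.75 and turned the fitted differences of *Bhlhe40*, *Per2*, *Dbp*, *Arntl* and *Clock* positive, as well as those of *Nr1d1* in tumor 1 (0.04) and of *Per1* in tumor 2 (0.33), so that no direction is given for these.

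Of the 12 core clock genes, 0 passed in edgeR in cycling cells (1.66% of all genes) and 1 in DESeq2 (8.13%). This was *Cry2* at -2.87 (edgeR adjusted p = 0.0703, DESeq2 5.99e-05), on 5.59 and 4.11 CPM against 37.6 and 33.8. Of 7 output genes DESeq2 called 2 (8.13% of all genes), *Wee1* and *Klf9* (-1.29, edgeR adjusted p = 0.154, DESeq2 0.0123, and -0.54 with ERCC scaling). In edgeR 1 of the 7 passed (1.66% of all genes), *Wee1*, the mitotic kinase that links the clock to cell division. It was higher by 2.51 (standard error 0.359, edgeR adjusted p = 0.0478), at 66.1 and 51.6 CPM against 10.5 and 10.1. The size stayed between 2.47 and 2.62 where the call of *Wee1* was lost, with each cell given the same total (0.0654), with another gene filter (0.0550) and with at least 7 cycle markers (0.0547). With TMM, none of the 10 immediate early genes, 11 hypoxia genes, 7 glucocorticoid genes and 10 related repressors passed in edgeR (1.66% of all genes). At an unadjusted p under 0.05 there were 8, 1, 3 and 2 of them, against 15.5% of all genes tested. DESeq2 called 3, 0, 3 and 1, beside 8.13% of all genes. All 10 immediate early genes had a negative difference with TMM, but 7 of 10 with ERCC scaling, where *Fos* (0.18), *Junb* (0.16) and *Dusp1* (0.11) were positive. With ERCC scaling 3 hypoxia genes passed as higher in cycling cells, *Ldha* (1.00, adjusted p = 0.0331), *Epas1* (0.86, 0.0235) and *Hif1a* (1.02, 0.0421), beside 14.5% of all genes. With TMM their differences were 0.25, 0.10 and 0.27. With the tumor as a block *Ndrg1* (adjusted p = 0.0414) and *Cebpd* (0.0416) passed, beside 3.01% of all genes.

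The tumors were compared side by side, with 1 tumor and 1 plate on each side and therefore no test. *Per2* was higher in tumor 2 by 2.21-fold in vascular (exact counting interval 1.95 to 2.50) and 2.49-fold in matrix libraries (1.96 to 3.19). *Per1* was higher by 1.82-fold (1.70 to 1.95) and 2.35-fold (2.10 to 2.63), and *Per3* by 2.20-fold (2.02 to 2.39) and 1.44-fold (1.24 to 1.67). All 3 *Per* genes were thus higher in tumor 2 in both classes. These intervals take each read as an independent count. Reads carry no molecular identifiers and can come from few cells, so the intervals leave out the spread between cells and are too narrow.

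Of the 10 genes, 1 (*Per2*) was past 2-fold in the same direction in both classes, beside 2.65% of all genes (1.54% higher in tumor 2). Its matrix ratio rested on 3 cells with a read in tumor 1. With each cell given the same total, the *Per2* ratios were 1.27 and 2.47, those of *Per1* 1.79 and 1.89 and those of *Per3* 2.25 and 0.835, so that in both classes *Per1* alone kept a ratio over 1.5. The shares of cells with a read of *Per1* moved in vascular cells, from 38.6% (32.7 to 44.8%) to 59.5% (53.0 to 65.7%), and less in matrix cells, from 64.4% to 66.7% with overlapping intervals.

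The activators did not follow. *Arntl* had ratios of 1.03 (0.977 to 1.09) and 0.686 (0.626 to 0.751), and *Clock* had 0.981 (0.938 to 1.02) and 1.36 (1.26 to 1.47). *Nr1d1* was higher in tumor 2 in vascular (1.40) and lower in matrix cells (0.776), as was *Dbp* (1.35 and 0.837, the latter interval reaching 1.02). *Nr1d2* had 1.33 and 1.15. *Bhlhe40* had 1.01 (0.982 to 1.04) in vascular and 0.787 (0.760 to 0.815) in matrix cells. *Bhlhe41* had 1.41 (1.17 to 1.71) on few reads in vascular and 1.06 (1.03 to 1.10) in matrix cells. Hour of collection was not given in the sources used here, and tumor, plate and hour cannot be told apart.

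Within a class and a tumor, the clock genes varied from cell to cell with little in common. Over the 45 pairs of the 10 genes, Spearman's correlation of log2(RPKM + 1) had a median of 0.029 and 0.035 in vascular and of 0.093 and 0.116 in matrix cells. *Per3* with *Dbp* gave 0.331 and 0.280 over 264 and 242 vascular cells and 0.263 and 0.245 over 87 and 84 matrix cells. *Dbp* with *Nr1d2* gave 0.322 and 0.234 in vascular and 0.219 and 0.227 in matrix cells. Cells of a tumor share the plate, and these values also move with depth, with which *Dbp* itself correlated by 0.175, 0.0780, 0.197 and 0.315 in the same order. They are weak correlations in sparse reads and are given as a description.

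*Bhlhe40* moved most with the immediate early genes, at 0.479 and 0.538 with their summed level in matrix cells and 0.326 and 0.251 in vascular cells. With the reads per cell it gave 0.335 and 0.263, and 0.151 and 0.116. *Bhlhe41* in matrix cells gave 0.179 and 0.171 with the immediate early genes. The DEC genes correlated with each other by 0.408 and 0.263 in matrix cells. *Bhlhe40* with the hypoxia list gave 0.018 and 0.236 in matrix and 0.147 and 0.181 in vascular cells, and with the glucocorticoid list 0.109 and 0.274, and 0.094 and 0.052.

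The genes most like *Bhlhe41* across vascular cells were *Cyp26b1*, *Casp1*, *Mir207*, *Sytl1* and *Rbp4*, with a mean correlation over the tumors of at most 0.213. Across matrix cells, a choice made after the values were seen, they were *Msx1*, *F2r*, *Frem1*, *Phlda3* and *Olfml3*, from 0.491 down to 0.455. *Msx1* reached 0.430 over 87 cells and 0.552 over 84. The genes most like *Dbp* across matrix cells were *Abcb8*, *Phip*, *Rnf146*, *Smad7* and *Pnpla2*, from 0.381 down to 0.335. A matrix cell had reads of 5.00 and 4.89 of the 10 clock genes on average, and a vascular cell of 2.83 and 3.39. Without *Bhlhe41* these means were 4.18 and 4.13 against 2.74 and 3.26. Over all endogenous genes, a matrix cell also had more genes with a read, with medians of 5644 and 5534 against 4061.5 and 4182. The means of the clock genes are therefore not read as a trait of these genes.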

How the data were processed

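Each well has 2 deposited values per gene. The counts, deposited as raw whole reads, come from single-end reads that the authors mapped to mm10 by STAR and assigned to the RefSeq annotation. Smart-seq2 does not mark the strand of a read. The RPKM values are those deposited by the authors, who ran rpkmforgenes to scale reads by gene model length and mappable depth. All columns were matched to wells by name. The 10 genes, the lists and the class limits were chosen with earlier results of these data known.

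Counts were summed per tumor over vascular and over matrix cells (or over cycling and other vascular cells), which made 4 libraries. The fit took genes whose mean RPKM reached 1 and used edgeR 4.0.16 (TMM, glmQLFit, glmQLFTest, two-sided, no covariate, Benjamini-Hochberg adjusted p under 0.05), checked on simulated data. Library sizes of the kept wells ran from 10281 to 1190516 reads. All 10 genes were named, and from each list those past the test and up to 4 others of highest mean RPKM. Some list genes are not reported here. Intervals of ratios are exact and conditional on the sum of both counts, and take each read as independent. *Noct* was taken as *Ccrn4l*. The classes within a tumor come from 1 animal, so the libraries are paired. Deviations of the libraries of a tumor from the class means correlated by 0.138 (0.132 for cycling cells). The main fit leaves this pairing out, and its p-values do not use it. Alternatives were the tumor as a replicate block, DESeq2 1.42.0, its size factors in edgeR, ERCC totals, equal weight for each cell, other gene and well filters, other class limits and markers, thinning, no cycling cells, no wells with an *Epcam* read, and each tumor alone. Doublets were not removed by a caller. The 28 wells near the class limit, and those of neither class, stand in for cells of mixed markers.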

Additional observations from a re-analysis of the deposited data

How the results depend on the processing

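*Bhlhe41* stayed lower in vascular cells under every alternative run. Its difference was -7.13 with ERCC totals, -6.91 with a class margin of 4, -6.82 with a higher minimum RPKM, -7.42 with classes from other markers and -4.11 as a mean of log2(RPKM + 1) over cells, and -6.71 to -6.28 with 1 tumor left out, where no test can be had. Genes called between the classes were 1910, but 2948 with DESeq2, 3986 with ERCC totals and 192 at an adjusted p under 0.001, and the clock genes among them were 2, but 3 with DESeq2, 4 with ERCC totals and 1 at 0.001. For cycling cells the 186 genes called became 338 with the tumor as a replicate block, 912 with DESeq2, 1631 with ERCC totals, 373 with all genes that had a read, and 0 at 0.001, and the clock genes called became 1 with DESeq2. With the block, 0 clock genes passed in cycling cells and 2 between the classes, and of the list genes *Timeless* and *Vegfa* (between the classes) and *Ndrg1* and *Cebpd* (in cycling cells) passed in addition. A fold of 1.5 gave 876 genes in place of 311 between the tumors. Why the counts moved was not tested. The 10 genes are at low counts in single cells, so an unread gene in a cell is not shown to be absent, and with 2 tumors differences under about the spread between them could not be told from it.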
